A study of Mus musculus with 8 samples.

Results

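The mouse genome holds a large family of related microRNAs (miRNAs) named miR-297, miR-466, miR-467 and miR-669, most of them encoded side by side within the gene Sfmbt2. All mouse miRNAs on the array whose name carried one of these 4 numbers followed by a letter were taken as members, whether detected or not, which gave 61 of 1881 mouse miRNAs. The rule reads names alone, but it was set with earlier results of these data known. The samples were medium taken from transwell cultures in which 2 chambers of primary myocytes shared fluid, with cells from the hind limb of newborn mice aged 1 to 3 days, measured on 1-colour Agilent miRNA arrays. Every culture carried a human SOD1 transgene, so no group was free of one. Hemizygous donors overexpressed either the wild-type protein (strain B6SJL(Tg-SOD1)2Gur/J, WT) or the G93A mutant that models amyotrophic lateral sclerosis (B6SJL(Tg-SOD1*G93A)1Gur/J, G93A), and the labels describe the animals as male.

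The 8 arrays formed 3 groups, named by the cells in the lower chamber and then those in the insert. There were 2 arrays of WT/WT, 3 of G93A/WT and 3 of G93A/G93A. In G93A/WT, mutant cells below and wild-type cells above shared medium through pores of 0.4 µm, and medium of all groups was collected at 2 days in vitro with no further treatment. In all groups more cells were seeded in the lower chamber than in the insert. Serum was 10% for proliferation and 2% for differentiation in every culture. By the labels the samples of a group are biological replicates, but they name no litter or culture day, so p-values measure the spread between these samples. Cell-free medium was not analysed here, and the level of a miRNA in medium does not tell the amount released per cell from the number of cells.

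A miRNA is cut from a hairpin RNA, whose left and right sides give the arms named 5p and 3p, and it represses messenger RNAs that pair with its seed, bases 2 to 8. Sfmbt2 is an imprinted gene of the Polycomb group, expressed from the paternal allele and active in trophoblast. Its intronic miRNA cluster is known from rodents, arose by repeated duplication within simple repeats, and is required for normal placental growth. In muscle-related cells, miR-669a is known for repressing MyoD, the master factor of skeletal muscle, in cardiac progenitors. miR-466l is known for stabilising the messenger RNA of the cytokine IL-10 in macrophages, and miR-466h-5p for promoting cell death in hamster cells starved of nutrients.

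In the RefSeq gene table (GRCm38.p6), 81 hairpin genes bore the 4 numbers and 71 of them lay within Sfmbt2. By symbol, 49 of the 61 members had all their hairpin genes inside Sfmbt2, 8 had all of them outside, 3 had copies in both places and 1, miR-466a-5p, was not matched. The name Sfmbt2-type therefore describes the family rather than the position of every member.

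Mature sequences were matched by name in the RefSeq miRNA table (GRCm38.p6) for 7 members. They are shown because they separate into repeats of U and G, to which both detected members belong, and repeats of A and C. The seed is in capitals, and miR-466j and miR-669n were detected on all 8 arrays while the other 5 were detected on none. miR-466j lies at chr10:60960802-60960824 (+ strand), miR-669n at chr3:115979905-115979924 (+ strand), and the positions of the rest were chr3:85467396-85467418 (+) for miR-466k, chr13:17747552-17747573 (+) for miR-466i-3p, chr3:28419988-28420007 (+) for miR-466q, chr11:69635419-69635439 (- strand) for miR-467f and chr5:34732872-34732892 (- strand) for miR-467g.
miR-466j: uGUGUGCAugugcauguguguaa
miR-669n: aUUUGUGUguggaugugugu
miR-466k: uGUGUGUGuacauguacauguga
miR-466i-3p: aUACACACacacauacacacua
miR-466q: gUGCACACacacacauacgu
miR-467f: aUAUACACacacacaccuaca
miR-467g: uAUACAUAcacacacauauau
Each of these 7 seeds occurred in 1 of the 1608 array miRNAs that have a sequence in the table, so none was shared within that set. Only 7 of the 61 members are in that set, so whether the remaining members carry these seeds or letters was not looked up. The letters UGUGUG stood in miR-466j, miR-669n and the undetected miR-466k, and ACACAC in the other 4. Over all array miRNAs with a sequence, 1.55% held UGUGUG and 0.684% held ACACAC, read on the mature strand only. A probe for one of these repeats may also read a near-identical miRNA, which was not tested, so single members may not give independent values.

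Between 450 and 563 mouse miRNAs were detected per array, and the sum of all signals ran from 115265 to 203040 units. The arrays shared 1 slide of 2 rows and 4 columns. All G93A/WT arrays sat in row 1 with WT/WT 1, and all G93A/G93A arrays in row 2 with WT/WT 2. The muscle markers miR-206-3p, miR-1a-3p, miR-133a-3p and miR-133b-3p were detected in all groups, with a summed scaled signal of 4522 to 5194 units in WT/WT, 4341 to 5256 in G93A/WT and 4094 to 5063 in G93A/G93A, and none passed the test in any comparison. The summed signal of 5 epithelial markers was 137.5 to 165.6 units in WT/WT, 61.2 to 85.0 in G93A/WT and 0 to 5.36 in G93A/G93A, where 4 of the 5 were undetected. All 5 fell in G93A/G93A against either other group, and their part in the results on the members was not tested. Of 4 erythroid and 4 leukocyte markers, 2 and 1 were tested, and the leukocyte miRNA miR-223-3p was higher in G93A/G93A than in WT/WT by 0.52 on the log2 scale, the only one of these to pass in any comparison.

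Detection of the members in medium was near that of all mouse miRNAs on the array. 18 of the 61 (29.5%) were detected on at least 1 array, against 586 of 1881 (31.2%), and 43 were detected on none, where only a bound can be given. By number, 8 of 23 miR-466 miRNAs, 7 of 23 miR-669 miRNAs, 2 of 12 miR-467 miRNAs and 1 of 3 miR-297 miRNAs were detected. By arm, 15 of 25 members named 5p, 1 of 26 named 3p and 2 of 10 with no arm in the name were detected. Over all array miRNAs, 300 of 775 (38.7%) named 5p, 171 of 785 (21.8%) named 3p and 115 of 321 (35.8%) with no arm were detected, and whether the members differ from these shares was not tested. The 1 detected 3p member, miR-467a-3p, was seen on G93A/WT 2 alone, and its 5p partner on no array. miR-669a-5p and both arms of miR-466l, named above for their known roles, were detected on no array. A detected member's signal exceeded its own measurement error by 3.01 to 16.0 times (median 6.95), and the error is the array software's own. On every array as many members exceeded 3 times their error as were detected, so the lower end goes with what counts as detected.

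The number of members detected was 14 and 12 on the WT/WT arrays, 13, 15 and 17 on the G93A/WT arrays and 17 on each of the G93A/G93A arrays. The G93A/G93A arrays and G93A/WT 3 therefore held more detected members than the other 4 arrays. The number of all detected miRNAs was 450 and 461 on the WT/WT arrays, 497, 563 and 520 on the G93A/WT arrays and 483, 451 and 476 on the G93A/G93A arrays. The G93A/G93A arrays held more detected members than G93A/WT 1 and G93A/WT 2, with fewer detected miRNAs in all. The WT/WT arrays were among the lowest in both counts. Any link between the counts was not tested.

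**Figure D1:**
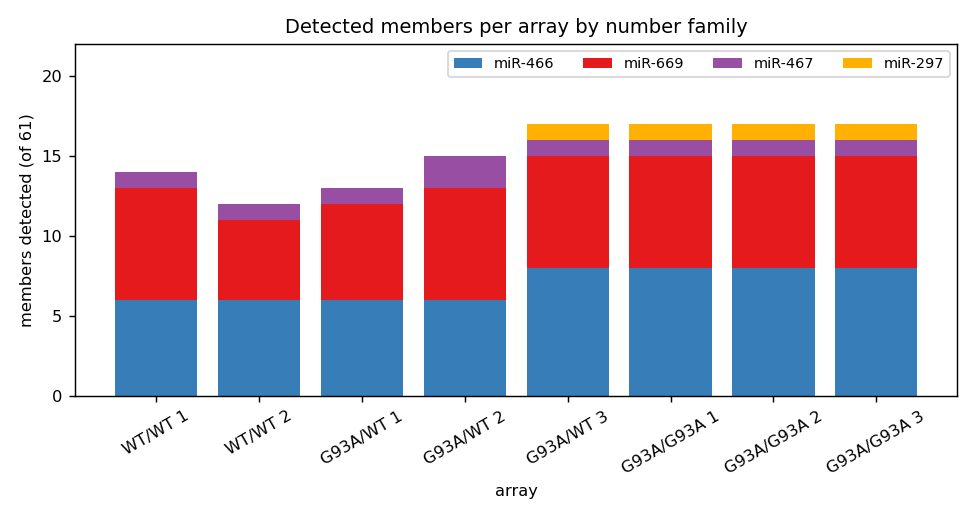
Bars give the number of the 61 members detected on each of the 8 arrays, split by number family. The 3 G93A/G93A arrays and G93A/WT 3 reached 17, and the other arrays lay between 12 and 15.

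2 arrays stood apart in the members before any comparison. G93A/WT 3 was above both other G93A/WT arrays in 17 of 17 tested members, where 22.5% of all 538 tested miRNAs did so, by a median log2 difference of 0.87 to the mean of the other 2. G93A/G93A 1 was likewise the highest of its group in 17 of 17, where 31.6% of all tested miRNAs did so, and exceeded G93A/G93A 3 by a median of 1.01. G93A/WT 3 minus G93A/G93A 3 had a median log2 difference of -0.04 (-0.25 to 1.62), and G93A/WT 3 was the higher of the pair in 4 of 17 members. Results are therefore also given without these arrays. Of the 2 WT/WT arrays, WT/WT 1 was the higher in 13 of 17 members and WT/WT 2 in 1, against 50.9% and 35.7% of all tested miRNAs.

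17 members were detected on at least 2 arrays and tested. A level is a log2 scaled signal, each array being scaled to a common 75th percentile, with undetected miRNAs set to a floor of 0.60. Groups were compared with limma over all 538 tested miRNAs, an adjusted p is from that test with Benjamini-Hochberg adjustment, the threshold is 0.05, and an SE is limma's moderated standard error.

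In medium of pure mutant cultures every tested member was above its level in pure wild-type medium, and 1 of the 17, miR-466j, rose past the threshold. Its hairpin lies outside Sfmbt2. On the WT/WT arrays its level was 2.48 and 2.06, on the G93A/WT arrays 3.11, 2.37 and 3.66, and on the G93A/G93A arrays 4.65, 4.14 and 3.67. The G93A/G93A arrays lay above both WT/WT arrays, while the lowest of them and G93A/WT 3 were level. The mean of G93A/G93A lay above that of WT/WT by 1.88 ± 0.42 on the log2 scale (SE, adjusted p = 0.0396). That call is narrow: the adjusted p became 0.135 when WT/WT 1 was left out, 0.198 when WT/WT 2 was, 0.074 for G93A/WT 1, 0.0913 for G93A/G93A 1 and 0.0995 for G93A/G93A 2. Only WT/WT 2 shares a row with G93A/G93A. A fit with row as a block and one within row 2 therefore gave the same difference as leaving out WT/WT 1, 2.09, and are not separate checks. With the authors' deposited values the difference was 2.01 (adjusted p = 0.0555).

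**Figure D2:**
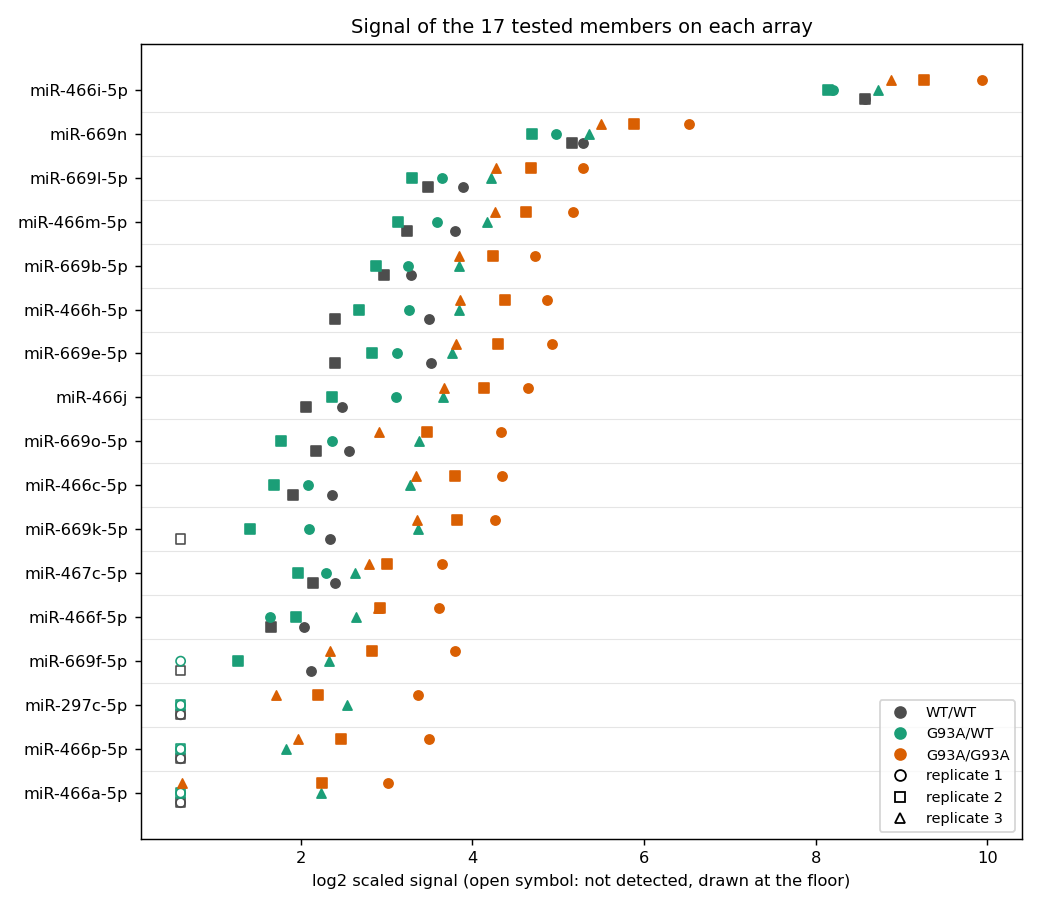
Each row is 1 of the 17 tested members, each symbol 1 array at its log2 scaled signal, coloured by group and shaped by replicate, with open symbols for undetected miRNAs at the floor. The G93A/G93A symbols lie to the right of the WT/WT symbols in all 17 rows, and the G93A/WT triangle (replicate 3) lies to the right of the other G93A/WT symbols.

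The count of 1 member called of 17 stands beside 8.55% of all 538 tested miRNAs called in this comparison, in either direction, and 3.72% called higher. The count of calls is therefore near the background. miR-297c-5p, miR-466a-5p and miR-466p-5p, undetected in WT/WT, were tested only because the other groups detected them, so their direction here was fixed by the filter. Counts are therefore given first for the 12 members detected on all 8 arrays. In 12 of these 12, every G93A/G93A array lay above every WT/WT array, against 19.1% of the 423 miRNAs detected on all arrays. 10 of 12 had an unadjusted p under 0.05 with a higher level, against 13.2% of the 423. Their median log2 difference was 1.19 with 12 of 12 above zero, against -0.07 and 43% over the 423. Over all 17 tested members, as a description, every G93A/G93A array lay above every WT/WT array in 17 (18% of all 538 tested). In 14 the unadjusted limma p was under 0.05 with a higher level (13.2%), and 17 lay above zero (42.9%). The median of the 17 was 1.36, against -0.01 over all tested, and single members ran from 0.74 to 2.34. Without G93A/G93A 1 the median was 1.07 and no member passed, without G93A/WT 3 the count was 4 (miR-466c-5p, miR-466f-5p, miR-466j and miR-466p-5p), and without G93A/G93A 3 it was 2 (miR-466j and miR-466p-5p). With G93A/WT 3 and G93A/G93A 1 both left out, 2 members passed (miR-297c-5p and miR-466p-5p), miR-466j did not, and the median was 1.07.

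3 members of 17 detected throughout G93A/G93A were undetected throughout WT/WT, a split that 10 of all 538 tested miRNAs (1.86%) showed. The split is given as a description, since these 3 were tested only through the groups that detected them. miR-297c-5p stood at 3.37, 2.20 and 1.71 on the G93A/G93A arrays, at 2.53 on G93A/WT 3 and at the floor on the other 4 arrays. It was at least 3.11-fold higher in G93A/G93A than in WT/WT (adjusted p = 0.151). miR-466p-5p showed the same arrangement, at 3.49, 2.47 and 1.97 on the G93A/G93A arrays and 1.83 on G93A/WT 3, and was at least 3.61-fold higher (adjusted p = 0.0634). miR-466a-5p stood at 3.02, 2.25 and 0.62 and at 2.23 on G93A/WT 3, and was at least 2.25-fold higher (adjusted p = 0.301). None of the 3 passed, and on G93A/G93A 3 miR-466a-5p was barely above the floor. These folds set the G93A/G93A mean against the lowest detected signal of the WT/WT arrays and are approximate, since detection is judged for each miRNA.

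Of the Sfmbt2 members detected on all arrays, miR-466c-5p and miR-466h-5p differed most between G93A/G93A and WT/WT. miR-466c-5p stood at 2.37 and 1.91 in WT/WT, at 2.08, 1.69 and 3.27 in G93A/WT and at 4.35, 3.79 and 3.34 in G93A/G93A, a log2 difference of 1.69 ± 0.49 (SE, adjusted p = 0.0856). miR-466h-5p, the member tied to cell death under starvation, stood at 3.49 and 2.40 in WT/WT, at 3.26, 2.68 and 3.84 in G93A/WT and at 4.87, 4.39 and 3.86 in G93A/G93A, a difference of 1.43 ± 0.47 (SE, adjusted p = 0.108). In both, the WT/WT and G93A/WT arrays 1 and 2 overlapped, and G93A/WT 3 sat just below the lowest G93A/G93A array. miR-669k-5p had the largest difference of all members, 2.34 ± 0.69 (SE, adjusted p = 0.0885), but was undetected on 1 of 2 WT/WT arrays, so the size depends on the floor.

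miR-466i-5p and miR-669n, which like miR-466j are encoded outside Sfmbt2, had the smallest differences of the 17. miR-466i-5p stood at 8.58 on both WT/WT arrays, at 8.21, 8.15 and 8.72 in G93A/WT and at 9.94, 9.27 and 8.88 in G93A/G93A, a difference of 0.78 ± 0.32 (SE, adjusted p = 0.173). miR-669n stood at 5.29 and 5.16, at 4.97, 4.69 and 5.36, and at 6.53, 5.88 and 5.49 in the same order, a difference of 0.74 ± 0.32 (SE, adjusted p = 0.19). On both, G93A/WT 1 and 2 were the lowest arrays and the G93A/G93A arrays the highest. The 3 tested members encoded outside Sfmbt2 had differences of 0.74 to 1.88 (median 0.78), and the 12 tested members with all copies inside it 0.88 to 2.34 (median 1.40). The ranges overlap, and the difference between the sites was not tested.

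4 further members, all encoded within Sfmbt2, had G93A/G93A 1 as their highest array, as did all the other tested members. miR-669l-5p differed by 1.06 ± 0.36, miR-466m-5p by 1.17 ± 0.38, miR-669b-5p by 1.14 ± 0.34 and miR-669e-5p by 1.38 ± 0.46 between G93A/G93A and WT/WT (SE), with adjusted p between 0.0926 and 0.118. In miR-669l-5p, for example, the level was 3.89 and 3.48 in WT/WT, 3.64, 3.29 and 4.21 in G93A/WT and 5.28, 4.68 and 4.27 in G93A/G93A. None of these 4 passed, and in each the lowest G93A/G93A array lay above both WT/WT arrays.

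The comparison of mixed with pure wild-type co-cultures asks whether medium differs when the bottom chamber holds mutant in place of wild-type cells. No member passed: 0 of 17 had an adjusted p under 0.05 in limma, and 0 had an unadjusted p under 0.05, where 3.9% and, on the higher side, 10.8% of all 538 tested miRNAs did. The median log2 difference of the members was 0.21, against 0.04 over all tested miRNAs, 15 of 17 members lay above zero against 55.4% of all tested, and single members ran from -0.22 for miR-466i-5p to 0.82 for miR-669k-5p. Among members present on every array of both groups, the 3 largest were 0.77 ± 0.42 for miR-466j (SE, adjusted p = 0.283), 0.31 ± 0.47 for miR-466h-5p (SE, adjusted p = 0.689) and 0.28 ± 0.46 for miR-669e-5p (SE, adjusted p = 0.722). The direction rested on single arrays: the median was -0.06 without G93A/WT 3 and also -0.06 without WT/WT 2. The slide row as a block gave -0.06 too and is the same contrast, since only WT/WT 1 shares a row with G93A/WT. Without WT/WT 2 or with that block, the differences of miR-466h-5p and miR-669e-5p turned to -0.23 and -0.28. In 0 of 17 members did every G93A/WT array lie above every WT/WT array, against 19.3% of all tested miRNAs. Of the 12 detected on all 8 arrays, 10 lay above zero, against 47.5% of the 423, with a median of 0.17. None of the 12 had an unadjusted limma p under 0.05 with a higher level (6.38% of the 423). In none of them did every G93A/WT array lie above every WT/WT array (16.1%).

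Pure mutant and mixed co-cultures differ in the insert, which holds mutant cells in the first and wild-type cells in the second. The 12 members detected on all 8 arrays all lay higher in G93A/G93A, with a median log2 difference of 1.06, against -0.04 over the 423 miRNAs detected on all arrays, of which 46.6% lay above zero. No member passed in limma (0 of 17, against 10.6% of all 538 tested). Among the 12, 11 had an unadjusted p under 0.05 with a higher level, against 16.1% of the 423, and in 11 every G93A/G93A array lay above every G93A/WT array, against 18.9%. miR-297c-5p, miR-466a-5p and miR-466p-5p were tested through 3 G93A/G93A arrays and 1 G93A/WT array, so they lend the direction no support. Over all 17, as a description, the median was 1.07 (0.82 to 1.63) against -0.10, and 17 lay above zero (41.8% of all tested). In 14 the unadjusted limma p was under 0.05 with a higher level (13.6%). Every G93A/G93A array lay above every G93A/WT array in 13 (15.6%). Among members present on every array of both groups, the 3 largest differences belonged to miR-669k-5p (1.52 ± 0.62, adjusted p = 0.146), miR-466c-5p (1.48 ± 0.44, adjusted p = 0.0761) and miR-466h-5p (1.11 ± 0.42, adjusted p = 0.128, all SE), and miR-466i-5p had the lowest adjusted p (1.00 ± 0.28, SE, adjusted p = 0.0713). Without G93A/WT 3 the count was 3 (miR-466c-5p, miR-466f-5p and miR-466p-5p), and without G93A/G93A 3 it was 6. With G93A/WT 3 and G93A/G93A 1 both left out it was 5, with a median of 1.12. The 2 groups never shared a slide row, and this comparison and the one with WT/WT share the G93A/G93A arrays.

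**Figure D3:**
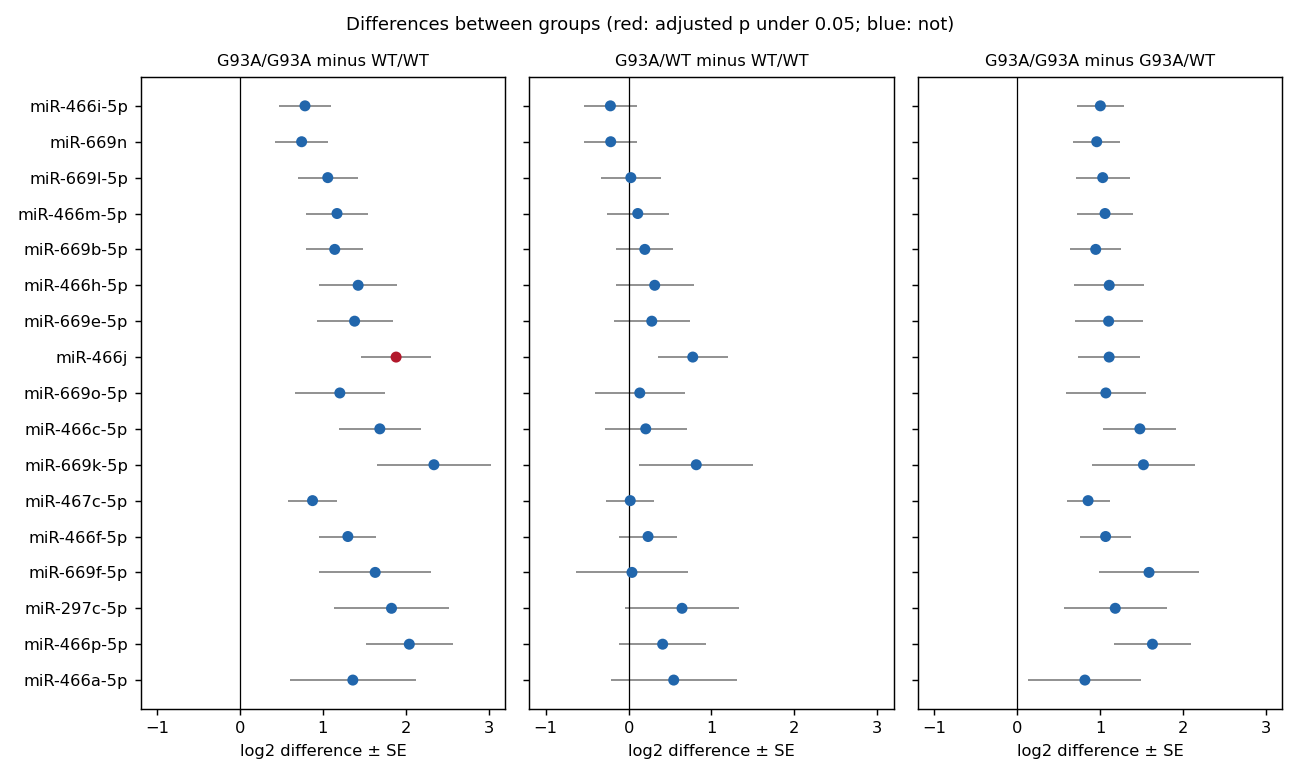
Points give the log2 difference of each tested member in the 3 comparisons and bars its SE, with red for an adjusted p under 0.05 and blue otherwise. All points lie above zero in the left and right panels, miR-466j in the left panel is the single red point, and the middle panel runs from -0.22 to 0.82 with 15 of 17 points above zero.

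To see whether other miRNAs with the same letters showed this arrangement of the arrays, the array miRNAs outside the 4 families whose mature sequence held UGUGUG, or else the letters ACACAC, or else those of AUACAU, were set beside the members. There were 31 of them, 15 were detected on at least 1 array and 14 were tested. Of the 11 tested with UGUGUG, 5 sequences are printed because their levels bear on the pattern, again with the seed in capitals, and all are from RefSeq (GRCm38.p6).
miR-574-5p: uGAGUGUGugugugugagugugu
miR-1187: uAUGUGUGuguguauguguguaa
miR-32-3p: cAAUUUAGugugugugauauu
miR-3097-5p: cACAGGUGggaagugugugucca
miR-206-3p: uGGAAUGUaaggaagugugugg
The seeds of these miRNAs differ from those of miR-466j and miR-669n. miR-574-5p stood at 8.20 and 8.21 in WT/WT, at 7.80, 7.76 and 8.30 in G93A/WT and at 9.35, 8.73 and 8.37 in G93A/G93A, a difference between G93A/G93A and WT/WT of 0.61 ± 0.30 (SE, adjusted p = 0.241). miR-1187 stood at 6.87 and 6.77, at 6.54, 6.42 and 6.98, and at 8.11, 7.49 and 7.06, a difference of 0.73 ± 0.31 (SE, adjusted p = 0.188). miR-32-3p stood at 3.42 and 3.01, at 3.32, 2.62 and 3.76, and at 4.97, 4.41 and 3.83, a difference of 1.19 ± 0.42 (SE, adjusted p = 0.124). In these 3, G93A/G93A 1 was the highest array, followed by G93A/G93A 2, and G93A/WT 3 lay just below G93A/G93A 3. G93A/G93A 1 was likewise the highest array of its group in all 17 tested members.

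Of the 14 tested miRNAs of this list, 1 rose between WT/WT and G93A/G93A, none fell and 13 did not pass. Over all 538 tested, 8.55% passed in either direction. The one was miR-3097-5p, at 3.96, 3.71 and 2.95 in G93A/G93A, undetected in WT/WT and on G93A/WT 1, at 1.03 on G93A/WT 2 and at 3.04 on G93A/WT 3 (adjusted p = 0.0461). In limma, 0 of the 14 passed between G93A/WT and WT/WT, where 2 had an unadjusted p under 0.05 (24.5% of all 538 tested did), and 0 passed between G93A/G93A and G93A/WT, where 7 did (32.2% of all tested). Among the 11 with UGUGUG the median log2 difference was 0.73 for G93A/G93A against WT/WT. Every G93A/G93A array lay above every WT/WT array in 9 (18% of all 538 tested). G93A/WT 3 was the highest of its group in 10 (22.5%) and G93A/G93A 1 in 9 (31.6%). miR-3097-5p and miR-294-3p of these 11 were undetected in WT/WT and tested only through the other groups. Their direction against WT/WT was therefore fixed by the filter. The muscle miRNA miR-206-3p also holds UGUGUG, at its 3′ end, but its G93A/G93A arrays did not lie above its WT/WT arrays. It stood at 11.28 and 11.75 in WT/WT, 11.06, 11.37 and 11.39 in G93A/WT and 11.28, 11.21 and 11.23 in G93A/G93A. G93A/WT 3 and G93A/G93A 1 were the highest of their groups here too, by small margins. let-7b-5p, also with UGUGUG, was lower in G93A/G93A, at 9.11 and 9.38 in WT/WT and 8.77, 8.90 and 8.79 in G93A/G93A. Its difference was -0.42 ± 0.14 (SE, limma adjusted p = 0.108). In miR-7226-5p, also of the 11, G93A/WT 3 was the lowest and G93A/G93A 3 the highest array of its group. The 3 tested miRNAs with ACACAC or AUACAU (miR-299b-5p, miR-329-3p and miR-362-3p) had differences below zero, -0.46 to -0.07, and in none did the G93A/G93A arrays lie above the WT/WT arrays. Whether the probes of the members and of the UGUGUG miRNAs of this list read the same RNA was not tested.

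**Figure D4:**
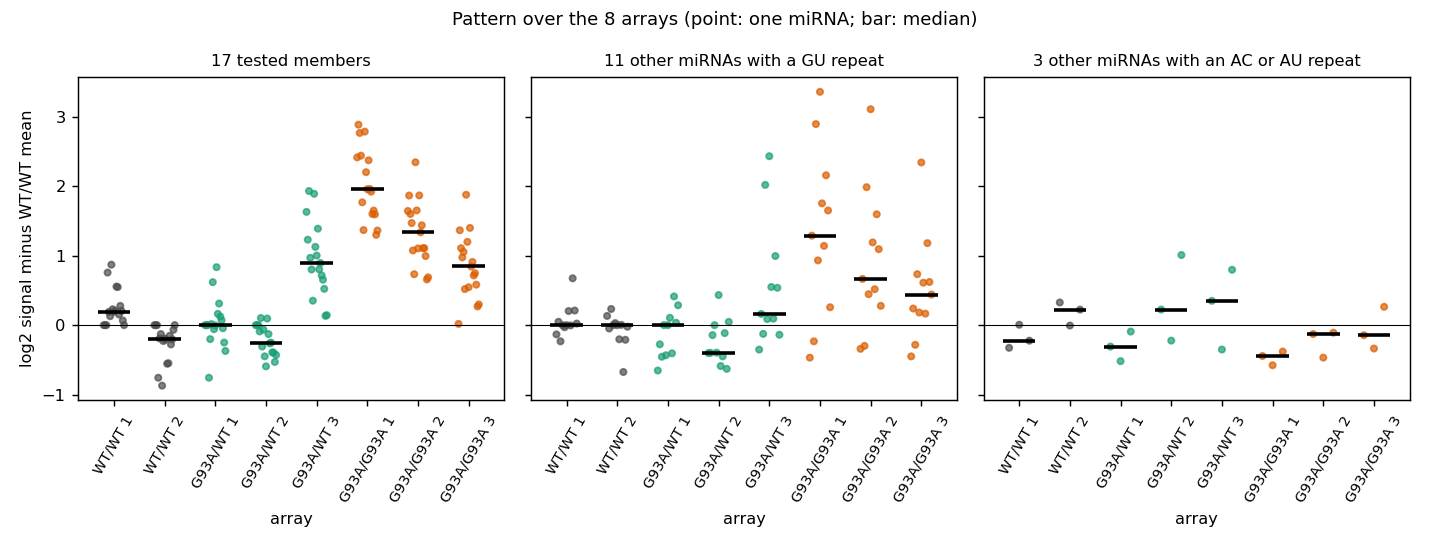
Each point is 1 miRNA on 1 array, as its log2 scaled signal minus its WT/WT mean, and bars are medians over the miRNAs of a panel, for the 17 tested members, the 11 other tested miRNAs with UGUGUG and the 3 with ACACAC or AUACAU. The medians of the first 2 panels are highest on G93A/G93A 1, and G93A/WT 3 lies above the other G93A/WT arrays, and the right panel shows no such order.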

How the data were processed

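Deposited files gave, per the file headers, an intensity for each miRNA (its total over the miRNA's probes), that intensity's error, and a flag for detection (1 or 0). An undetected miRNA is listed at 0.1. Background handling: not given in the sources used here. A deposited table of the authors' processed intensities, of unstated normalization, held 492 mouse miRNAs and 17 members and served as an alternative. Its array medians ran from 23.2 to 26.5.

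Each array was scaled so that its 75th percentile over the 423 miRNAs detected on all 8 arrays was equal, values were floored at 1.52 units (median over arrays of the lowest detected scaled signal) and log2 was taken. limma 3.58.1 in R 4.3.3 fitted the 3 groups with 1 shared spread over the 538 miRNAs detected on at least 2 arrays, after testing on simulated data. Where all arrays of a group sit at the floor their spread is 0, and p-values may be too small. Precision is limited by having 2 or 3 arrays in a group. Control features (21) were left out. Correlations of same-numbered arrays' deviations from their group means ran from -0.35 to 0.21, so replicate numbers were not taken as pairs.

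The members and lists were chosen with earlier results of these data known. Members were named if called, among the 8 with the highest mean signal, detected on all arrays of one group and none of another, or among the 3 largest differences of a comparison in members detected on all arrays of both groups. Others were named after their values were seen.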

Additional observations from a re-analysis of the deposited data

How the results depend on the processing

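Between G93A/G93A and WT/WT the median difference of the members stayed above zero under all 23 alternatives (0.99 to 1.65), but the count of 1 called member did not hold. It was 0 with scaling on the median, on the 75th percentile of each array's own detected miRNAs or by quantiles, with the authors' deposited values, with the floor at 2 or 0.5 times, within the row or with row as a block, and with only the 2 groups compared. It was 4 with no scaling, 2 with only miRNAs detected on all 8 arrays, 2 with an intensity trend, 2 with G93A/WT 3 and G93A/G93A 1 both left out, and 0 to 4 with single arrays left out. miR-466j passed under 7 of the 23. Row as a block, within the row and leaving out WT/WT 1 gave the same differences here, so they are not separate checks. With the replicate number as a block the counts were 0, 0 and 0 over the 3 comparisons, the first down from 1, and 0 of 6 arrays correlated best with its own number.

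Between G93A/WT and WT/WT the count was 2 and the median 0.88 with no scaling, which moved the median of all tested miRNAs to 0.79. The median was above zero under 18 of 23 alternatives. The differences of miR-466h-5p and miR-669e-5p reversed to -0.23 and -0.28 within the row, without WT/WT 2, and with row as a block, which are the same contrast. Without single arrays they ran from -0.23 to 0.86 and from -0.28 to 0.84. Scaling on own detected miRNAs moved the median of all tested miRNAs to 0.44 here and to -0.34 between G93A/G93A and G93A/WT.

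Between G93A/G93A and G93A/WT the count was 1 by quantiles, 1 with no scaling, 1 with only miRNAs detected on all 8 arrays, 5 with both arrays left out, and 0 to 6 with single arrays left out. The median was 0.50 with no scaling, where that of all tested miRNAs was -0.68. The cause of these changes was not tested. A lone array left in a group was assumed to vary like the others. Leaving out G93A/WT 3 and G93A/G93A 1, and testing miRNAs detected on at least 1 array, were chosen after seeing the data. The 75th percentile over all mouse miRNAs fell among undetected miRNAs and was not run, nor was a test with no filter, since 1295 miRNAs were detected on no array.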

Other observations

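Among tested miRNAs outside the 4 families, the order of the arrays was also set against the longest unbroken run of alternating G and U in the mature sequence, a measure chosen after the values were seen and given with no test. The 7 miRNAs with a run of 8 or more bases had a median log2 difference between G93A/G93A and WT/WT of 1.12. Every G93A/G93A array lay above every WT/WT array in 7 of 7, against 18% of all 538 tested. G93A/WT 3 and G93A/G93A 1 were each the highest of their group in 7 of 7, against 22.5% and 31.6%. miR-3097-5p, 1 of the 7, was undetected in WT/WT and tested only through the other groups, so its direction was fixed by the filter. The median was 0.33 for 5 miRNAs with a run of 6 to 7 bases, 0.06 for 63 with 4 to 5, and -0.08 for 376 with 0 to 3. miR-6348 (1.65 ± 0.50, SE, limma adjusted p = 0.0955) and miR-672-5p (1.12 ± 0.41, SE, limma adjusted p = 0.135) belong to the first of these.
miR-6348: uCAGCCUUuauaaggugugugu
miR-672-5p: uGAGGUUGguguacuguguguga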
